A study of Mus musculus with 14 samples.

Results

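Benzyl alcohol and Lipofectamine, which both act on cell membranes, were compared directly in B16-F10 cells, a mouse melanoma line. The comparison used 6 of the 14 Affymetrix mouse expression arrays of the series, the 3 of cells treated with benzyl alcohol and the 3 of cells treated with Lipofectamine, as their labels give them. No control array entered the contrast. The other arrays are 5 of untreated control cells and 3 of heat-shocked cells (1 h at 42.5 °C, then 30 min of recovery), and their levels are given beside the results. Lipofectamine 2000, a cationic lipid reagent that carries DNA into cells, was applied in Opti-MEM for 3 h, after which the cells had 30 min in RPMI with serum. Benzyl alcohol, a small alcohol that makes membranes more fluid, was applied at 40 mM for 1 h at 37 °C. Its recovery in fresh medium is given as 3 h in the sample protocol, while the text on the whole series gives 30 min for RNA extraction. The agent, the medium, the length of exposure and the recovery differ together between the groups and cannot be told apart. All cells are of 1 line of C57BL/6J origin, and the labels call the arrays biological replicates, so that p-values measure the spread between such replicates.

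Cells that meet unfolded protein in the cytosol activate the factor HSF1, which switches on genes of chaperones such as the HSP70 and small heat shock proteins. Amino acid shortage and stress of the endoplasmic reticulum act through the factor ATF4, and oxidants act through the factor NRF2 on genes of glutathione and detoxification. Immediate early genes, many of them for transcription factors, respond to a stimulus within minutes and without new protein, and their RNA decays as fast.

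The values are log2 signals, so a difference of 1 is a 2-fold change. All differences below are benzyl alcohol minus Lipofectamine, and a positive one means a higher signal after benzyl alcohol. Of 22626 probesets, groups of short probes that each report an RNA, 2883 (12.7%) passed an adjusted p under 0.05 in limma, 1470 higher after benzyl alcohol (6.5%) and 1413 higher after Lipofectamine (6.25%). The difference was at least 2-fold at 464 of them, 202 higher and 262 lower. With 1 probeset a gene, the brightest, 837 of 12393 genes were higher (6.75%) and 714 lower (5.76%), and the median difference over all genes was 0.04. In bulk RNA, fewer cells in a given state and less RNA per cell cannot be told apart. The count of probesets was 1425 without Lipofectamine replicate 1 and 1828 without benzyl alcohol replicate 3. The methods of the study use an unadjusted p under 0.001. There it belongs to a random-variance F-test over control, heat-shocked and Lipofectamine-treated cells, without benzyl alcohol. At that threshold 1606 passed in the limma fit used here (7.1%), 787 higher (3.48%) and 819 lower (3.62%), and 923 without Lipofectamine replicate 1. The groups did not overlap at 28.5% of probesets, 15.6% with benzyl alcohol above and 12.9% below, and at 27.6% of genes (15.7% and 12%).

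The arrays stood apart in a second way that the labels do not name. The first principal component (35.6% of the variance) placed the 3 Lipofectamine, 3 heat shock and control arrays 1 and 3 on one side, and the 3 benzyl alcohol arrays with control arrays 2, 4 and 5 on the other. The bioB probesets, which read an RNA added at hybridization and not the cells, divided the control arrays the same way. Their mean signal was 6.72 and 6.81 in control arrays 1 and 3, and 5.85 to 5.96 in control arrays 2, 4 and 5. It was 6.25 to 6.78 after Lipofectamine and 5.80 to 6.20 after benzyl alcohol. Correlations of the Lipofectamine arrays ran from 0.981 to 0.992 for control arrays 1 and 3 and from 0.977 to 0.983 for the other controls. Those of the benzyl alcohol arrays ran from 0.977 to 0.982 and from 0.985 to 0.992. Signals of the 3′ and 5′ probesets of Gapdh, a measure of RNA quality, differed by −0.10 to 0.07 in the 6 arrays. Pigment cell genes were bright, with 20 of 24 above the median signal after benzyl alcohol and 19 after Lipofectamine. Epithelial, fibroblast and macrophage markers above it numbered at most 3 of 10, 1 of 10 and 2 of 9 in either group.

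**Figure D1:**
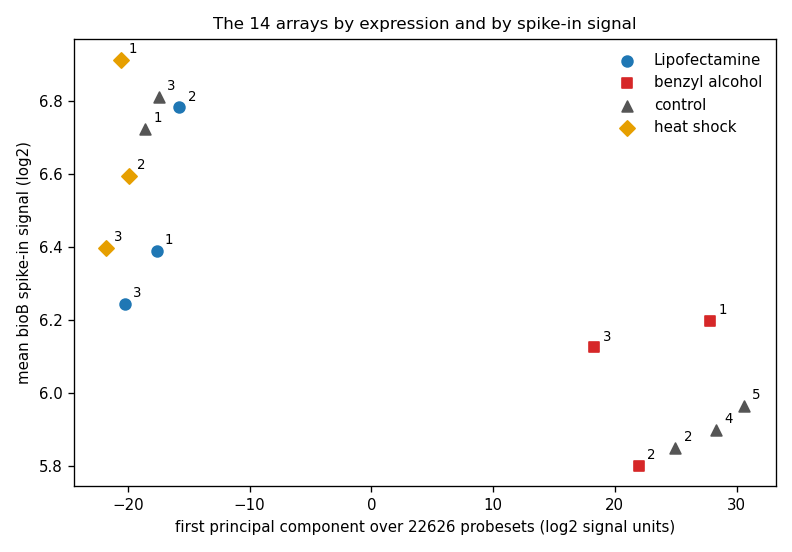
Each of the 14 arrays is placed by the first principal component over 22626 probesets (x axis, log2 signal units) and by the mean signal of the bioB spike-in probesets (y axis, log2). Symbols mark the groups and small numbers the replicates. The benzyl alcohol arrays lie at the right with control arrays 2, 4 and 5, and the Lipofectamine arrays at the left with control arrays 1 and 3 and the heat shock arrays.

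The same comparison was therefore also fitted on 11 arrays with the array set as a term, an alternative chosen after the data had been seen. This estimate is the difference of benzyl alcohol from control arrays 2, 4 and 5 minus the difference of Lipofectamine from control arrays 1 and 3. Only the control arrays were divided by bioB, into sets that the labels do not name. The treated arrays were placed whole by group, Lipofectamine with the control set of higher bioB and benzyl alcohol with the lower. For the treated arrays the set is thus the treatment group. In bioB, Lipofectamine replicate 3 (6.25) lay close to benzyl alcohol replicate 1 (6.20). With this term limma called 334 probesets (1.48%), 195 higher and 139 lower after benzyl alcohol. Of the 2883 probesets called without it, 2288 kept their sign and 595 (20.6%) took the opposite one. Of the 2883, 181 were called again with the same sign and 21 with the opposite sign. At 1572 of the 2883 (54.5%) control arrays 2, 4 and 5 differed from control arrays 1 and 3 in the same direction by at least 50% of the treated difference. At 580 (20.1%) the control arrays differed by under 25% of it. Over all probesets both differences correlated at 0.56, a description across probesets that are not independent. Whether a batch, a culture state or another cause lies behind the sets was not tested.

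**Figure D2:**
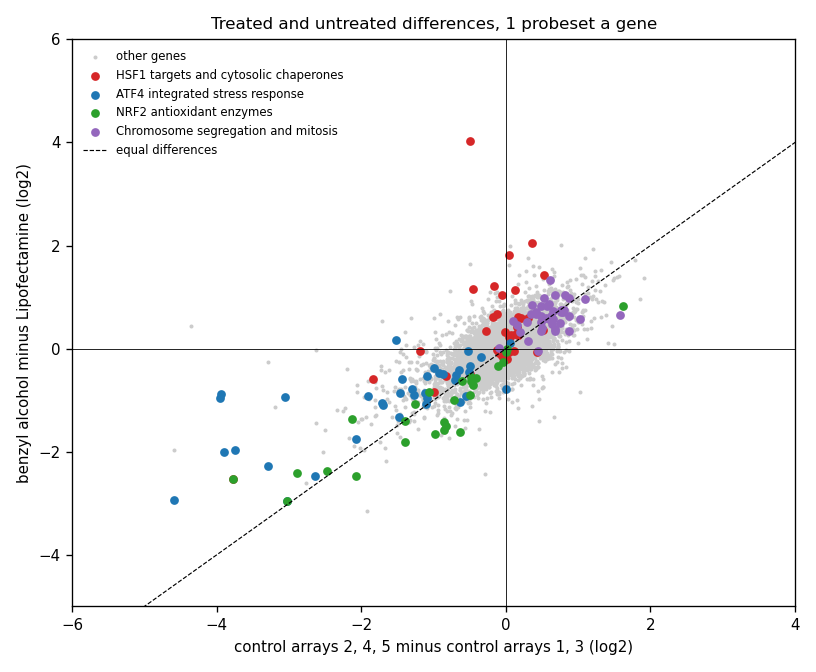
Each point is 1 of 12393 genes, with the difference between control arrays 2, 4 and 5 and control arrays 1 and 3 on the x axis and that between benzyl alcohol and Lipofectamine on the y axis, both in log2. The dashed line marks equal differences. ATF4 genes (blue) and mitotic genes (purple) spread along both axes, while the highest chaperone points (red) sit near the middle of the x axis.

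**Figure D3:**
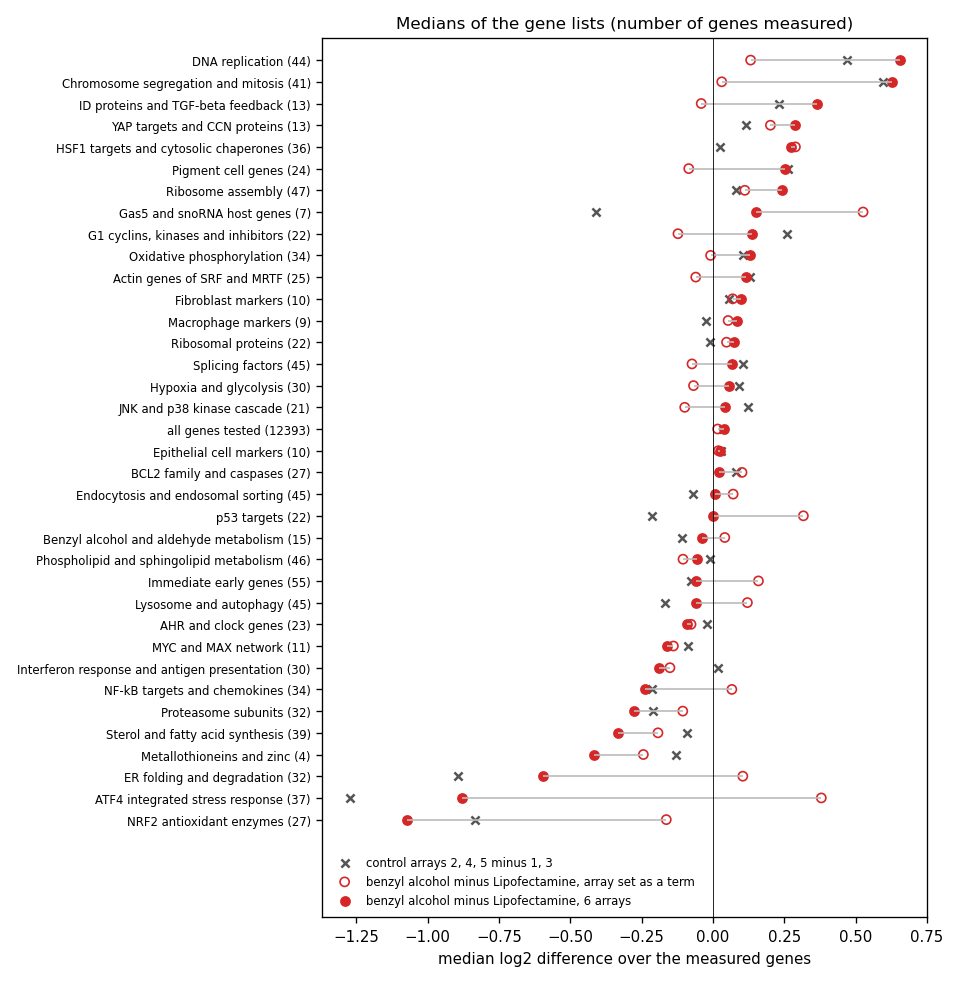
Each row is a gene list, with the number of genes measured. Filled circles give the median log2 difference over its genes in the 6 arrays, open circles the same with the array set as a term, and crosses the median difference between control arrays 2, 4 and 5 and control arrays 1 and 3. The median of the 37 ATF4 genes goes from −0.88 to 0.38 between the filled and the open circle, that of the 36 chaperone genes from 0.27 to 0.29.

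Some chaperone genes under HSF1 were higher after benzyl alcohol, led by the small heat shock protein Hspb1, while most did not pass. Of 36 measured genes of HSF1 targets and cytosolic chaperones, 11 were higher after benzyl alcohol, 3 were lower and 22 did not pass, where 12.5% of all genes were called. Without Lipofectamine replicate 1 the higher genes numbered 7. The median was 0.27, against 0.04 over all genes, and the control arrays differed by a median of 0.03 at these genes. With the array set as a term, where 1.4% of all genes were called (0.984% higher and 0.412% lower), 4 were higher (Hspb1, Hsph1, Cryab and Dnajb2) and 0 lower, with a median of 0.29.

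Hspb1, which holds unfolded proteins in solution, had the largest difference of any named gene. Its signals at the probeset of largest difference were 7.12, 7.33 and 6.88 after Lipofectamine and 12.18, 11.49 and 12.71 after benzyl alcohol. The 5 control arrays read 6.48, 6.15, 6.86, 6.18 and 6.26, and the heat shock arrays 12.68, 12.91 and 13.32. All benzyl alcohol arrays lay far above all Lipofectamine arrays, and the Lipofectamine arrays lay just above the control arrays. The difference was 5.02 or 32.4-fold (SE 0.247, adjusted p = 1.2e-06 by limma) and 5.50 with the array set as a term. The brighter probeset of Hspb1 gave 8.40, 8.61 and 8.75 against 12.82, 12.25 and 12.79, a difference of 4.03 or 16.4-fold.

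Hspa1b, an inducible HSP70 whose promoter the study examined, lay above all control arrays after both agents, and higher after benzyl alcohol. At its dimmest probeset it read 7.48, 7.50 and 7.38 after Lipofectamine and 10.06, 8.33 and 11.20 after benzyl alcohol. The control arrays read 5.19, 5.44, 4.30, 5.14 and 5.13 there. The groups did not overlap, but the benzyl alcohol arrays spread widely where the Lipofectamine arrays lay close together. The difference was 2.41 or 5.32-fold (SE 0.503, adjusted p = 0.0087 by limma). With the array set as a term it was 1.92 and did not pass (adjusted p = 0.22). The brightest Hspa1b probeset differed by 2.06 or 4.16-fold (adjusted p = 0.0045 by limma). With the term it differed by 1.70 and did not pass (adjusted p = 0.12 by limma). The remaining Hspa1b probeset differed by 2.02. Its near-identical neighbour Hspa1a shares much of its sequence, so signals of these probes may come from either gene. Hspa1a at its own probeset read 4.26, 4.39 and 4.49 against 4.86, 4.72 and 9.0, and did not pass (difference 1.81, adjusted p = 0.209 by limma).

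Hsph1, a nucleotide exchange factor of HSP70, read 10.77, 11.04 and 10.87 after Lipofectamine and 12.22, 11.85 and 12.24 after benzyl alcohol, with control arrays at 10.43 to 10.72. The difference of 1.21 (SE 0.141, adjusted p = 0.000323 by limma) was 1.38 with the array set as a term and passed there too (adjusted p = 0.0025). The lens and muscle small heat shock protein Cryab was higher by 1.14 (1.02 with the set as a term) and the mitochondrial co-chaperonin Hspe1 by 0.96 (0.94) at one probeset and by 0.61 at the other. Dnajb1, the HSP40 that feeds clients to HSP70, read 9.86, 9.92 and 9.76 against 11.20, 10.61 and 12.02, a difference of 1.43. The co-chaperones Dnaja4, Dnajb6 and Ahsa1 were higher by 1.04, 0.59 and 0.58, the HSP110 relative Hspa4l by 0.67 and the mitochondrial ribosomal protein Mrps6 by 0.60. Bag3, which couples HSP70 to autophagy, read 9.51, 9.79 and 9.20 against 10.61, 9.66 and 11.72 and did not pass (difference 1.16, adjusted p = 0.0688 by limma). Hspa4, an HSP110 protein that the study named, differed by 0.22, 0.49 and 0.83 at its 3 probesets, of which the last 2 passed, and the call at 0.49 was lost without Lipofectamine replicate 1 or 3 or benzyl alcohol replicate 1 or 2. The constitutive HSP70 gene Hspa8 differed by −0.19 at its dimmest probeset and by less at its others, and none passed.

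The 3 lower members were Hmox1, which breaks down heme and answers to NRF2 as well, by −2.53, the mitochondrial HSP70 Hspa9 by −0.84 and the neuronal co-chaperone Dnajb2 by −0.60. At Dnajb2 the control arrays differed by −1.85, and with the array set as a term the difference was 1.25 (adjusted p = 0.013 by limma).

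**Figure D4:**
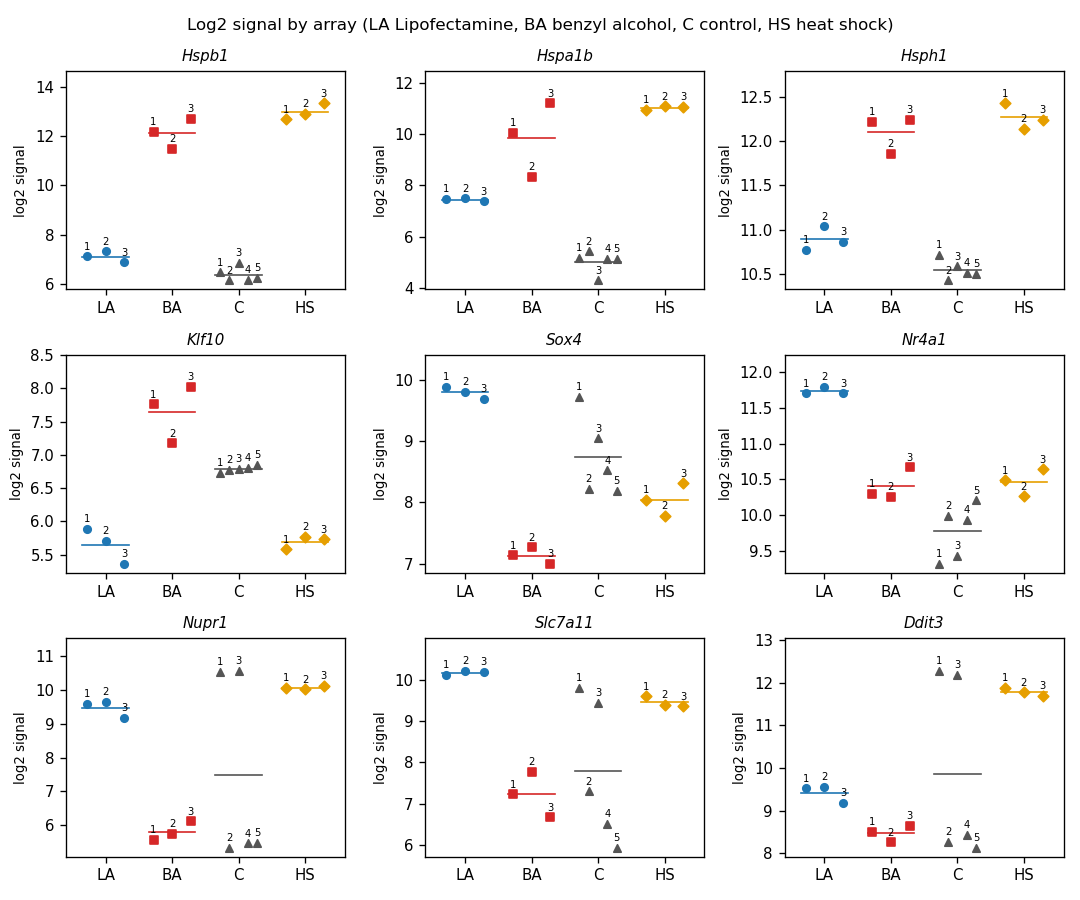
Log2 signal (y axis) of 9 genes in every array, with Lipofectamine (LA), benzyl alcohol (BA), control (C) and heat shock (HS) on the x axis, replicate numbers above the points and a line at each group mean. Hspb1, Hspa1b, Hsph1 and Klf10 are higher in all 3 benzyl alcohol arrays than in all 3 Lipofectamine arrays, and Sox4, Nr4a1, Nupr1, Slc7a11 and Ddit3 lower. The control arrays of Nupr1, Slc7a11 and Ddit3 fall into separate groups, 1 and 3 above 2, 4 and 5.

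Promoter windows of 4 of these higher genes are shown because each holds the core of the element that HSF1 binds. The windows come from RefSeq on build GRCm38.p6, and the motif was searched as GAANNTTC or TTCNNGAA, each its own reverse complement, in the 250 bases before a gene's start. Capitals mark the matches, with 30 bases on either side where the window allows. Hsph1 has 2 windows, and the first of them with a match is shown. The Hspb1 stretch lies at chr5:135887772-135887859 on the plus strand, with matches 117 and 97 bases before the start. That of Hspa1b lies at chr17:34959305-34959372 on the minus strand (104 bases before), that of Hsph1 at chr5:149636337-149636399 on the minus strand (33 bases before) and that of Hspe1 at chr1:55088029-55088106 on the plus strand, with 3 overlapping matches 89 to 79 bases before.
Hspb1: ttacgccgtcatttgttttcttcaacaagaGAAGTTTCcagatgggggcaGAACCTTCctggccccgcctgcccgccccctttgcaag
Hspa1b: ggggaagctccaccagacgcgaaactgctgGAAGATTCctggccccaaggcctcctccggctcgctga
Hsph1: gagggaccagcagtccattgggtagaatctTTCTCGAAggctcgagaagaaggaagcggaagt
Hspe1: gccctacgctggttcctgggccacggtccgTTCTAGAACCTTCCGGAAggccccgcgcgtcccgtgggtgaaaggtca

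A match was present for 12 of the 31 genes of the chaperone list that have a window (38.7%), against 3932 of all 27025 genes (14.5%) and 4218 of all 32851 windows (12.8%). The list was composed of HSF1 targets and chaperones, so this share says nothing about the difference between the agents. Hspa1a and Dnajb4, which did not pass, also have a match, and Dnajb1, Hspa4l, Ahsa1 and Mrps6, which were higher, have none. A match is a stretch of letters and not a measured binding site. No window was found for Cryab, Hsp90aa1, Hspa8, Hmox1 and Hspa9.

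Genes of the ATF4 response stood lower after benzyl alcohol than after Lipofectamine, and the control arrays differed at the same genes. Of 37 measured, 30 were lower after benzyl alcohol, 0 were higher and 7 did not pass, with a median of −0.88. Control arrays 2, 4 and 5 differed from control arrays 1 and 3 by a median of −1.27 at these genes, the largest of any list. In the fit over all 14 arrays 10 were lower. With the array set as a term 0 were lower and 7 higher, with a median of 0.38. All 8 enzymes of amino acid synthesis were lower, by −1.75 to −0.46, as were 5 of 7 amino acid transporters and 7 of 10 genes of tRNA charging and export. The synthesis enzymes lower numbered 4 without Lipofectamine replicate 1. The tRNA genes lower numbered 3 without Lipofectamine replicate 1 or 2 or benzyl alcohol replicate 3, and 4 without benzyl alcohol replicate 2.

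Nupr1, a small chromatin protein made under stress, read 9.59, 9.65 and 9.17 after Lipofectamine at its probeset of largest difference. After benzyl alcohol it read 5.56, 5.74 and 6.11. Its control arrays 1 and 3 read 10.53 and 10.57, and control arrays 2, 4 and 5 read 5.34, 5.47 and 5.47. Each treated group thus lay near one set of control arrays. The difference was −3.67 or 12.7-fold (SE 0.172, adjusted p = 9.9e-07 by limma), and 1.46 with the array set as a term (adjusted p = 0.0066). The other called probeset of Nupr1, also lower in the 6 arrays, differed by 1.01 with the term (adjusted p = 0.031 by limma). Slc7a11, the cystine transporter that feeds glutathione synthesis, read 10.12, 10.22 and 10.18 against 7.23, 7.78 and 6.67, with 9.79 and 9.44 in control arrays 1 and 3 and 7.30, 6.51 and 5.94 in the others. Its difference was −2.95 or 7.72-fold in the 6 arrays and 0.09 with the set as a term.

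The pseudokinase Trib3, which restrains ATF4, differed by −2.93 and by 1.66 with the array set as a term, and the glutathione-degrading enzyme Chac1 by −2.01 and 1.89. Other lower genes were the transcription factor Atf5 (−2.47), the serine synthesis enzyme Psph (−1.75), asparagine synthetase Asns (−1.33) and Atf4 itself (−1.09). Ddit3, a pro-apoptotic transcription factor, read 9.52, 9.56 and 9.18 after Lipofectamine, 8.50, 8.26 and 8.64 after benzyl alcohol, 12.28 and 12.19 in control arrays 1 and 3 and 8.27, 8.43 and 8.13 in the other controls. Both treated groups lay below control arrays 1 and 3. Its difference was −0.96 in the 6 arrays and 3.00 with the array set as a term (adjusted p = 2.6e-06 by limma). Cebpb, a partner of ATF4, differed by −0.94 at its brightest probeset and by 2.11 with the term. Another probeset of Cebpb, also called lower in the 6 arrays, differed by 0.49 with the term and did not pass there (adjusted p = 0.67 by limma). Ppp1r15a, which restores translation, differed by −0.88 and did not pass, and by 3.06 with the term (adjusted p = 0.00337 by limma).

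Stretches around the amino acid response core, searched as TGATGCAA and its reverse complement TTGCATCA, are shown for 3 genes of the ATF4 list and for Atf3, an immediate early gene under the same factor. They are from the same RefSeq windows, with matches in capitals. Nupr1 is at chr7:126625543-126625610 on the minus strand (110 bases before the start), Slc7a11 at chr3:50443623-50443709 on the minus strand (66 and 47), Chac1 at chr2:119351019-119351086 on the plus strand (193) and Atf3 at chr1:191183406-191183473 on the minus strand (110).
Nupr1: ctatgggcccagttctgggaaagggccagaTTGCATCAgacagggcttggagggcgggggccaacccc
Slc7a11: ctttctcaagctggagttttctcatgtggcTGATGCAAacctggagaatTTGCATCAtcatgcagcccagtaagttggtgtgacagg
Chac1: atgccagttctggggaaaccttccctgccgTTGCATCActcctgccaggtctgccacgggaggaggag
Atf3: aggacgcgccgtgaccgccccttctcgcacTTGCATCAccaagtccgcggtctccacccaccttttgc

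The core was found for 4 of the 30 genes of the ATF4 list that have a window (13.3%), Nupr1, Chac1, Slc7a11 and Aars, against 248 of all genes (0.918%) and 260 of all windows (0.791%). The list was composed of genes of the ATF4 response, so this share says nothing about the difference between the agents.

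Folding and degradation genes of the endoplasmic reticulum followed the same course. Of 32 measured, 23 were lower after benzyl alcohol and 9 did not pass (median −0.60), and 14 were lower without Lipofectamine replicate 1 and 12 in the fit over all 14 arrays. The control arrays differed by a median of −0.89, and with the array set as a term 0 were lower and 1 was higher, with a median of 0.10. Sel1l, the scaffold of a complex that exports misfolded protein, read 9.89, 9.95 and 9.77 after Lipofectamine and 8.49, 8.41 and 8.00 after benzyl alcohol (difference −1.57). The chaperone component Sdf2l1 differed by −1.41, the disulfide isomerase Pdia4 by −1.33 and Hsp90b1, the HSP90 of this compartment, by −1.21. Hspa5, its HSP70, differed by −0.61. Creld2, a secreted folding factor, differed by −0.85 and was the member higher with the term, by 1.21.

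Antioxidant enzymes under NRF2 had the lowest median of all lists, −1.07. Of 27 measured, 21 were lower after benzyl alcohol and 5 did not pass. The exception, Gsta2, a glutathione transferase, was higher by 0.82. The control arrays differed by a median of −0.83. In the fit with the array set 1 was lower, 0 were higher and the median was −0.16. Gclm, a subunit of the enzyme that starts glutathione synthesis, read 12.08, 12.07 and 12.03 after Lipofectamine, above every control array (8.81 to 11.10), and 9.82, 9.64 and 9.31 after benzyl alcohol. The difference was −2.47 or 5.55-fold (SE 0.142, adjusted p = 3.46e-06 by limma) and −0.40 with the term. Srxn1, which repairs peroxiredoxins, differed by −2.41 at its brightest probeset, the biliverdin reductase Blvrb by −2.38, and Nqo1, a quinone reductase, by −1.81. Mgst1, a membrane-bound glutathione transferase, differed by −1.65. The member that passed with the term was the glutathione reductase Gsr, at −1.61 in the 6 arrays and −0.97 with it (adjusted p = 0.0377 by limma). The metallothioneins Mt2 and Mt1, which bind zinc, differed by −0.99 and −0.63, and the other 2 of the 4 genes of that list did not pass. The call of Mt1 was lost without Lipofectamine replicate 1, and 1 gene of that list was higher without benzyl alcohol replicate 2.

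Immediate early genes went both ways. Of 55 measured, 7 were higher after benzyl alcohol, 12 were lower and 36 did not pass, with a median of −0.06 in the 6 arrays. The control arrays differed by a median of −0.08. With the array set as a term 5 were higher and 4 lower, and the median was 0.16. Fos, the founder of the family that pairs with JUN, read 10.76, 10.98 and 10.55 after Lipofectamine and 8.35, 7.37 and 9.28 after benzyl alcohol, with 6.85 to 7.52 in the control arrays. Every Lipofectamine array exceeded every benzyl alcohol array, and 2 of the 3 benzyl alcohol arrays exceeded all controls. The difference was −2.43 or 5.39-fold (SE 0.352, adjusted p = 0.00108 by limma) and −2.15 with the term (adjusted p = 0.043).

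Nr4a1, an orphan nuclear receptor, read 11.70, 11.79 and 11.70 after Lipofectamine and 10.30, 10.25 and 10.67 after benzyl alcohol. Its control arrays 1 and 3 read 9.32 and 9.43, and the others 10.00, 9.93 and 10.21. Both treated groups thus lay above all controls. The difference was −1.32 (SE 0.137, adjusted p = 0.000157 by limma) and −1.99 with the term (adjusted p = 0.00012). Other genes lower after benzyl alcohol were Ier3, a survival factor (−2.60), Gadd45a, a growth arrest gene (−1.96), Zfp36, which destabilizes short-lived mRNAs (−1.28), Junb (−1.24) and Rgs2, which shortens signals from G-protein-coupled receptors (−1.11). Of these, Ier3 and Junb differed by 0.16 and 0.04 with the term, and Gadd45a by 2.63 (adjusted p = 0.00964 by limma).

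Klf10, a zinc finger repressor induced by TGF-beta, was the immediate early gene highest after benzyl alcohol. It read 5.89, 5.70 and 5.36 after Lipofectamine, 7.76, 7.17 and 8.02 after benzyl alcohol and 6.73 to 6.85 in the control arrays. The Lipofectamine arrays lay below every control array and the benzyl alcohol arrays above. The difference was 2.0 or 4-fold (SE 0.206, adjusted p = 0.000155 by limma) and 1.95 with the term (adjusted p = 0.0035). Hbegf, a growth factor shed from the membrane, was higher by 0.95, Gadd45b by 0.78, the EGR co-repressor Nab2 by 0.78 and the phosphatase Dusp2 by 0.63.

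For several early genes the benzyl alcohol arrays disagreed among themselves, which was noticed after the values were seen. At 16 of 12393 genes their SD exceeded 1, against 0 genes among the Lipofectamine arrays, although the median SD over genes was 0.149 after benzyl alcohol and 0.165 after Lipofectamine. All 16 were highest in benzyl alcohol replicate 3, among them the chaperone genes Hspa1a, Hspa1b, Dnajb4 and Bag3. Egr1, a growth factor response gene, read 10.25, 10.21 and 9.99 after Lipofectamine and 7.64, 7.09 and 10.18 after benzyl alcohol, with 6.93 to 7.32 in the controls, and did not pass (difference −1.85, adjusted p = 0.0562 by limma). Jun read 9.36, 9.70 and 9.26 against 8.69, 7.30 and 11.52, and the stress factor Atf3 8.60, 8.70 and 8.43 against 8.76, 7.58 and 10.67. Neither passed. Control arrays 1 and 3 of Atf3 read 11.27 and 11.22, the others 6.97, 6.72 and 6.97, and its difference with the term was 4.79 (adjusted p = 0.0055 by limma). Egr2 at its brighter probeset differed by −0.37, Gadd45g by −0.28 and the ERK phosphatase Dusp6 by −0.01, and none of them passed.

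**Figure D5:**
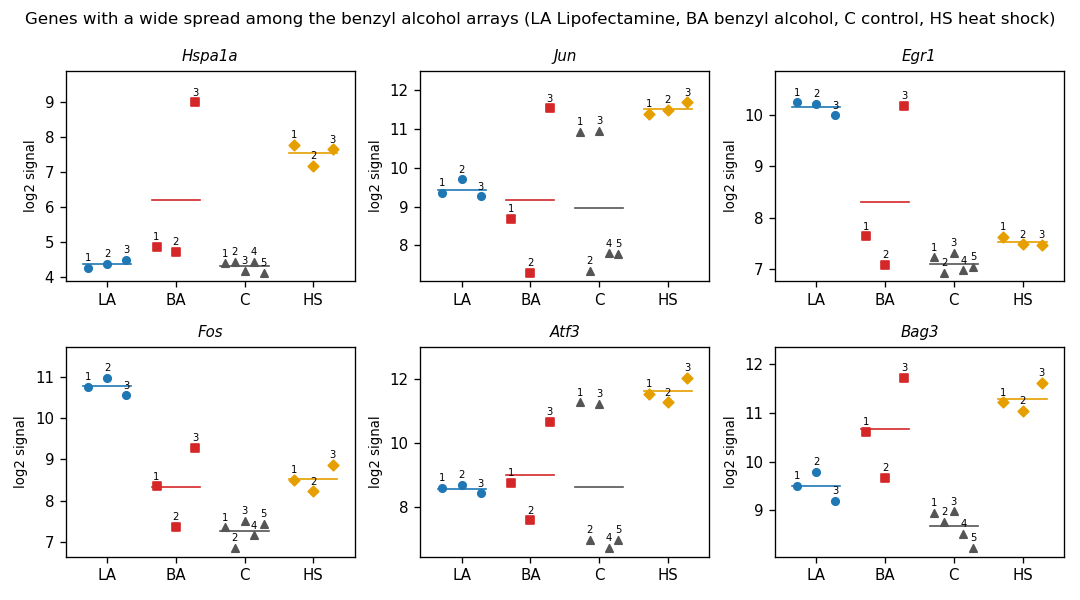
Log2 signal (y axis) of 6 genes in every array, laid out as in the plot of 9 genes, with replicate numbers above the points and a line at each group mean. In each of them benzyl alcohol replicate 3 is the highest and replicate 2 the lowest of that group. For Hspa1a it reads 9.0 against 4.86 and 4.72.

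DNA replication genes stood higher after benzyl alcohol, and so did genes of mitosis. Of 44 replication genes, 32 were higher and 0 lower (median 0.65), and of 41 genes of chromosome segregation and mitosis, 29 were higher and 0 lower (median 0.63). Without Lipofectamine replicate 1 the counts were 21 and 17. Control arrays 2, 4 and 5 lay above control arrays 1 and 3 by medians of 0.47 and 0.60. Once the array set was a term the medians were 0.13 and 0.03, with 2 replication genes higher and 1 lower, and 0 mitotic genes higher and 1 lower.

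Cdc6, which loads the replicative helicase, had the largest difference of the replication list, 1.51. Rfc4, a subunit of the clamp loader, read 7.69, 8.00 and 7.42 after Lipofectamine and 9.11, 8.95 and 9.33 after benzyl alcohol, with 8.38 to 9.08 in the controls. Its difference was 1.43 (SE 0.164, adjusted p = 0.000295 by limma) and 1.25 with the term (adjusted p = 0.034). Cdt1, the licensing factor, differed by 1.03 and by 0.95 with the term (adjusted p = 0.021). These were the 2 replication genes higher with the term. The member lower with it was Rrm1, a subunit of ribonucleotide reductase (0.45 in the 6 arrays, not passed, and −1.02 with the term). All 6 subunits of the MCM helicase, Mcm2 to Mcm7, were higher by 0.69 to 0.97. Pold1, the catalytic subunit of DNA polymerase delta, was higher by 1.01. Dut, which keeps uracil out of DNA, differed by 1.19 in the 6 arrays and 0.06 with the term.

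Among mitotic genes the kinesin Cenpe was higher by 1.33, Birc5 and Kif23, which act at the spindle midzone and in cell division, by 1.04 each, cyclin A2, Ccna2, by 0.96 and the kinetochore protein Cenpf by 0.87. Ccna2 read 10.36, 10.35 and 10.20 after Lipofectamine and 11.38, 11.32 and 11.09 after benzyl alcohol. Its control arrays 1 and 3 read 10.43 and 10.16, and the others 11.36, 11.30 and 11.48. Each treated group lay near one set of controls, and the difference with the term was −0.13. Aurkb, the kinase of the chromosomal passenger complex, differed by 0.65 in the 6 arrays and by −0.93 with the term (adjusted p = 0.0308 by limma).

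Of 22 G1 cyclins, kinases and inhibitors, 5 were higher (3 without Lipofectamine replicate 1) and 1 lower (lost without any array but Lipofectamine replicate 2), with a median of 0.14. Cdk2 was higher by 1.38 and differed by −0.16 with the term. The cyclin genes Ccne2 and Ccnd3 differed by 0.90 and 0.71, Cdk4 by 0.60 and the inhibitor Cdkn2d by 0.58, and E2f3, a cell cycle transcription factor and the lower member, by −0.45. With the term E2f3 was lower by −0.68 and the inhibitor Cdkn1a higher by 1.46. Of 47 ribosome assembly genes, 10 were higher and 0 lower (median 0.24, control arrays 0.08), led by Ebna1bp2 (1.05) and Bop1 (0.88), which build the large subunit. Nop56 and Nhp2, proteins of snoRNA particles, differed by 0.71 and 0.62. The higher genes of the assembly list numbered 5 without Lipofectamine replicate 1, 6 without replicate 3 and 5 without benzyl alcohol replicate 3, and 0 with the array set as a term, and 1 was lower without benzyl alcohol replicate 1. Of 11 genes of the MYC network, Mxi1, an antagonist of MYC, was higher by 0.59, a call lost without Lipofectamine replicate 1 or benzyl alcohol replicate 1 (1.59 with the term, adjusted p = 0.00086 by limma). Mxd4, Max and Mnt were lower by −1.11, −0.94 and −0.61. None of 22 ribosomal protein genes passed in limma (median 0.08), and 1 was higher without Lipofectamine replicate 2 or benzyl alcohol replicate 2.

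Among genes of sterol and fatty acid synthesis, which cells raise when membrane cholesterol is low, those that passed were lower after benzyl alcohol with 1 exception, and most did not pass. Of 39 measured, 14 were lower, 1 was higher and 24 did not pass, with a median of −0.33 against −0.09 between the control arrays. The lower genes numbered 5 without Lipofectamine replicate 1, and 9 and 6 without benzyl alcohol replicates 2 and 3. The higher ones numbered 2 without benzyl alcohol replicate 1 or 3. With the term 4 were lower and 0 higher, and the median was −0.19. Msmo1, an oxidase of cholesterol synthesis, read 9.74, 9.59 and 9.39 after Lipofectamine, 8.47, 8.44 and 8.17 after benzyl alcohol and 8.61 to 9.20 in the controls. The Lipofectamine arrays lay above all controls and the benzyl alcohol arrays below. The difference was −1.21 (SE 0.139, adjusted p = 0.00029 by limma) and −0.93 with the term (adjusted p = 0.038). The fatty acid desaturase Scd1 differed by −1.16, farnesyl diphosphate synthase Fdps by −1.02 and the sterol enzymes Lss, Cyp51 and Sqle by −0.64, −0.61 and −0.59. Srebf1, the factor that drives lipid synthesis, differed by −0.41. Fatty acid synthase, Fasn, differed by −0.37 and did not pass, and by −1.14 with the term (adjusted p = 0.0341 by limma). Elovl5, a fatty acid elongase, was the higher member (0.95, and 0.06 with the term).

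Of 46 genes of phospholipid and sphingolipid metabolism, 8 were lower (5 without Lipofectamine replicate 1) and 3 higher, with a median of −0.06. The lower genes included Sgpl1 (−1.15), which degrades sphingosine phosphate, the phospholipase Pla2g6 (−1.13), the acyltransferase Lpcat3 (−1.02) the sphingomyelin synthase Sgms1 (−0.96) and the choline kinase Chkb (−0.85). Sphk1, which makes sphingosine phosphate, was higher by 0.90, and the acyltransferase Agpat5 and the lipid flippase Atp11a by 0.69 each. With the term 0 of them passed. Of 45 lysosome and autophagy genes, 6 were lower and 3 higher (median −0.06), the lower ones including the autophagy receptor Sqstm1 (−1.07), the autophagosome protein Gabarapl1 (−0.85) and the sialidase Neu1 (−0.77). Gabarapl1 differed by 0.79 with the term (adjusted p = 0.0405 by limma).

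Endocytosis genes were called at about the rate of all genes. Of 45 measured, 4 were lower, 2 higher and 39 did not pass (13.3% called, against 12.5% of all genes), with a median of 0.01. The 2 higher members were both caveolins, the coat proteins of membrane caveolae. Cav1 read 6.13, 6.19 and 6.41 after Lipofectamine and 7.41, 7.26 and 7.21 after benzyl alcohol, and Cav2 9.03, 9.25 and 8.87 against 10.63, 10.03 and 10.38. Control arrays 1 and 3 of Cav2 read 9.18 and 9.30 and the others 10.03 to 10.12. The differences were 1.05 and 1.30 in the 6 arrays, and 0.27 and 0.45 with the term. Lower members were Stam (−1.21) and Stam2 (−0.39), which sort ubiquitinated cargo, the clathrin adaptor Dab2 (−0.77) and the endosome tether Eea1 (−0.58). The lower genes numbered 2 without Lipofectamine replicate 1, 1 without replicate 2 and 1 without benzyl alcohol replicate 3.

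Feedback genes of TGF-beta and BMP signalling included some of the largest differences. Of 13 ID and TGF-beta feedback genes, 5 were higher and 2 lower, with a median of 0.37 in the 6 arrays and −0.04 with the term. Smad6, an inhibitor of BMP signalling, read 6.34, 6.25 and 6.08 after Lipofectamine and 8.30, 8.08 and 8.07 after benzyl alcohol, with 6.47 and 6.27 in control arrays 1 and 3 and 7.44 to 7.68 in the others. The benzyl alcohol arrays lay above all controls. The difference was 1.93 or 3.8-fold (SE 0.129, adjusted p = 1.23e-05 by limma) and 0.72 with the term (adjusted p = 0.063). Skil, a co-repressor of SMAD proteins, read 8.66, 8.78 and 8.46 against 10.17, 9.84 and 10.83, with 8.81 to 9.58 in the controls, a difference of 1.65 and of 2.15 with the term (adjusted p = 0.0028 by limma). Id2, Id3 and Id1, which block helix-loop-helix factors, differed by 1.41, 0.97 and 0.72 at their brightest probesets, and by −0.15, −0.22 and −0.23 with the term. Another probeset of Id2 read 7.45, 7.72 and 7.43 against 7.77, 7.12 and 6.13 and did not pass (difference −0.53, adjusted p = 0.346 by limma). With the term it differed by −1.98 (adjusted p = 0.0308). The lower members were the SMAD repressor Tgif1 (−1.43) and Tgfb1 itself (−0.89).

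Of 13 YAP targets and CCN matrix proteins, Ccn2, Ccn4 and Ccn3 were higher by 1.38, 1.10 and 0.72 and Ccn1 lower by −0.96 (the latter not without Lipofectamine replicate 2). With the term Wwtr1, a YAP relative, was the member that passed (1.12, adjusted p = 0.03 by limma). Of 25 actin genes of SRF and MRTF, 7 were higher and 1 lower, with a median of 0.12. The focal adhesion proteins vinculin, Vcl (0.92), and zyxin, Zyx (−0.92), went opposite ways, and the myosin light chain Myl9 and the calponin Cnn2 were higher by 0.80 and 0.73. The higher actin genes numbered 3 without Lipofectamine replicate 1, 4 without benzyl alcohol replicate 1 or 3, and 0 with the term. The lower ones numbered 2 without Lipofectamine replicate 3.

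Pigment cell genes were higher in 9 of 24 cases and lower in 0, with a median of 0.25, and the control arrays differed by a median of 0.26. Mitf, the master regulator of melanocytes, read 9.23, 9.86 and 9.57 after Lipofectamine and 11.36, 11.70 and 10.75 after benzyl alcohol at its brightest probeset. Its control arrays 1 and 3 read 9.87 and 9.93 and the others 11.62 to 11.74. The difference was 1.72 in the 6 arrays and −0.06 with the term. Mlph, which links pigment granules to their motor, differed by 1.92 at the probeset of largest difference (0.87 with the term, adjusted p = 0.025 by limma). Its brightest probeset differed by 1.02. Rab32, which directs enzymes to these granules, differed by 1.09 and the protease Bace2 by 1.06. With the term 0 genes of the list passed at their brightest probeset.

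Of 34 NF-kB targets and chemokines, 10 were lower after benzyl alcohol, 0 were higher and 24 did not pass (median −0.24, control arrays −0.21), with 6 lower in the fit over all 14 arrays. With the array set as a term 2 were higher (Cxcl10 and Birc2) and 1 lower (Cxcl1), and the median was 0.07. The chemokine Cxcl1 read 9.17, 9.02 and 8.48 after Lipofectamine and 5.62, 5.90 and 5.69 after benzyl alcohol, with 7.79 and 7.48 in control arrays 1 and 3 and 6.04, 5.62 and 5.47 in the others. The Lipofectamine arrays exceeded every control array, while the benzyl alcohol arrays lay within the range of control arrays 2, 4 and 5. The difference was −3.15 or 8.88-fold (SE 0.174, adjusted p = 3.1e-06 by limma) and −1.23 with the term (adjusted p = 0.039). The NF-kB subunit Relb differed by −1.47, the inhibitor Nfkbie by −1.22 Cxcl10, an interferon-induced chemokine, by −1.12 and Tnfaip2, a gene induced by TNF, by −1.04. Cxcl10 differed by 2.07 with the term (adjusted p = 0.00393 by limma). Of 30 interferon and antigen presentation genes, 7 were lower, 1 was higher and 22 did not pass (median −0.19, control arrays 0.02). The higher member, the immunoproteasome subunit Psmb10 (0.39), did not pass with any 1 array left out. Among the lower genes were the class I molecules H2-K1 (−1.14) and H2-D1 (−0.90), the peptide loader Tapbp (−1.05) and the antiviral enzyme Rsad2 (−0.98). With the term 0 of the 30 passed.

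Of 32 proteasome subunits, 10 were lower and 0 higher, with a median of −0.28 and −0.21 between the control arrays. That count was 1 without Lipofectamine replicate 1, 4 without replicate 2, 5 without benzyl alcohol replicate 2 or 3, and 0 with the term. Psmd7, a subunit of the regulatory particle, had the largest difference of the list, −0.75. Psmd1, Psmd3 and Psmc1 of the same particle differed by −0.68, −0.59 and −0.58 and the core subunit Psmb3 by −0.67. Of 30 genes of hypoxia and glycolysis, 8 were higher and 3 lower (median 0.05). Higher members were the clock and hypoxia repressor Bhlhe40 (1.38) and the oxygen sensor Egln1 (0.90), and lower ones the aldolase Aldoc (−0.92) and the vessel growth factor Vegfa (−0.81). The higher genes numbered 4 without Lipofectamine replicate 1 or benzyl alcohol replicate 1, and 5 without Lipofectamine replicate 3 or benzyl alcohol replicate 3. With the term P4ha2, a collagen hydroxylase, was higher by 1.26 and the glucose transporter Slc2a3 by 0.76, and 0 were lower.

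Among 15 enzymes that could act on benzyl alcohol or its aldehyde, 1 was higher and 3 lower (median −0.04), and 0 passed with the term. The lower genes numbered 1 without Lipofectamine replicate 1 or 2 or benzyl alcohol replicate 2, and the higher ones 0 without Lipofectamine replicate 1. Adh7, an alcohol dehydrogenase, read 10.31, 10.42 and 10.00 after Lipofectamine and 8.30, 8.29 and 8.37 after benzyl alcohol at its brightest probeset, with 9.79 and 9.58 in control arrays 1 and 3 and 7.95 to 8.10 in the others. The difference was −1.92 (SE 0.136, adjusted p = 1.62e-05 by limma), and −0.25 with the term. The aldehyde dehydrogenases Aldh2 and Aldh9a1 differed by −0.62 and −0.53 and Aldh1a3 by 0.62. The call of Aldh2 was lost without Lipofectamine replicate 1 or 2 or benzyl alcohol replicate 2 or 3, that of Aldh9a1 without Lipofectamine replicate 1 or 2 or benzyl alcohol replicate 2, and that of Aldh1a3 without Lipofectamine replicate 1. Of 23 AHR and clock genes 1 was higher and 4 lower (2 without Lipofectamine replicate 1), with the nuclear receptor Nr1d2 at −1.34 and the clock repressor Bhlhe41 at −0.51, and 0 passed with the term.

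Of all genes 12.5% were called. In the remaining lists the share was 22.2% for the BCL2 family and caspases and 20% for splicing factors. The other lists lay near or below the share of all genes. They had 14.3% for the JNK and p38 cascade and for snoRNA host genes, and 11.8% for oxidative phosphorylation. Macrophage markers had 11.1% and p53 targets 9.09%. Splicing factors had 4 of 45 higher and 5 lower (median 0.07), with Rsrp1 at −0.99, Rbm39 at −0.68, Hnrnpa2b1 at 0.72 and U2af1, which reads the 3′ splice site, at 0.59. The higher genes numbered 1 without Lipofectamine replicate 1 or benzyl alcohol replicate 1 or 3, and 2 without Lipofectamine replicate 3. The lower ones numbered 1 without Lipofectamine replicate 1 or 2 or benzyl alcohol replicate 3, and 2 without benzyl alcohol replicate 2. With the term Rsrp1 was lower (−1.14) and the kinase Clk3 higher (0.79). Of 27 genes of the BCL2 family and caspases 4 were higher (1 without Lipofectamine replicate 1 and 2 without benzyl alcohol replicate 3) and 2 lower. The higher ones were the pro-apoptotic Bcl2l11 (0.76), the caspase Casp2 (0.70), Casp8ap2 (0.70) and the mitochondrial protease Htra2 (0.68), and the lower ones the pro-apoptotic Bbc3 (−0.95) and Casp4 (−0.80). The lower genes numbered 0 without Lipofectamine replicate 1 or 2 or benzyl alcohol replicate 1, and 1 without any other array. With the term 0 of the 27 passed. Of 22 p53 targets 2 were lower, Sesn2 (−0.91) and Bbc3, and both calls were lost without Lipofectamine replicate 1 or 2 or benzyl alcohol replicate 1 or 2. Without benzyl alcohol replicate 3 the lower ones numbered 4, and 1 and 3 were higher without Lipofectamine replicate 3 and benzyl alcohol replicate 2. With the term Cdkn1a and Rrm2b were higher. JNK and p38 cascade genes had 2 of 21 higher and 1 lower, with the kinase Map2k6 at 0.99, the scaffold Mapk8ip1 at 0.70 and the kinase Mapk9 at −0.61. The call of Mapk8ip1 was lost without Lipofectamine replicate 1 or 3 or benzyl alcohol replicate 1 or 2, and that of Mapk9 without Lipofectamine replicate 1. The higher genes of the cascade numbered 1 without Lipofectamine replicate 1 or 3 or benzyl alcohol replicate 1, and 0 passed with the term. Oxidative phosphorylation had 4 of 34 higher and 0 lower (median 0.13), with Uqcrc2 at 0.74, Atp5c1 of the ATP synthase at 0.50, Uqcrfs1 at 0.47 and Sdhd at 0.43. Of these 4 only 1 passed without Lipofectamine replicate 1 or benzyl alcohol replicate 3, and 2 without Lipofectamine replicate 3 or benzyl alcohol replicate 1. Of 7 snoRNA host genes Snhg5 was higher by 0.86 (1.32 with the term, adjusted p = 0.029 by limma), and Snhg1 differed by −0.34, which did not pass, and by 1.38 with the term. Of the epithelial and fibroblast markers 0 passed, and of 9 macrophage markers 1 was higher, Cd68, a lysosomal protein, by 0.71 (lost without Lipofectamine replicate 2 or benzyl alcohol replicate 3).

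Outside the lists the largest differences higher after benzyl alcohol included Ppargc1a, a coactivator of mitochondrial genes. It read 4.78, 4.32 and 4.54 after Lipofectamine and 7.38, 6.73 and 6.43 after benzyl alcohol, with 5.45 to 6.66 in the controls. The difference at this probeset, that of largest difference, was 2.30 or 4.93-fold (SE 0.214, adjusted p = 9.11e-05 by limma). With the term it was 1.70 (adjusted p = 0.044 by limma). The brightest probeset of Ppargc1a read 7.20, 7.38 and 7.14 against 9.62, 8.13 and 7.75. It differed by 1.26 (adjusted p = 0.0388 by limma), and by 1.09 with the term, where it did not pass (adjusted p = 0.563 by limma). Anp32a, a histone chaperone, read 7.35, 8.08 and 7.06 against 9.68, 9.32 and 10.11, with 7.23 to 7.96 in the controls, a difference of 2.21 (1.92 with the term). Pmepa1, a membrane protein that limits TGF-beta signalling, differed by 2.17 (1.55 with the term). Cardiac troponin T, Tnnt2, differed by 2.12, the kinase anchor Akap2 by 2.02 and Deptor, an inhibitor of mTOR, by 2.01, and none of these 3 passed with the term.

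Sox4, a transcription factor of progenitor cells, had the lowest value after benzyl alcohol, relative to Lipofectamine, of the named genes outside the lists. It read 9.88, 9.81 and 9.69 after Lipofectamine, 7.14, 7.27 and 6.99 after benzyl alcohol and 8.19 to 9.72 in the controls, where control arrays 1 and 3 were the highest. The benzyl alcohol arrays lay below every control array. The difference was −2.66 or 6.32-fold (SE 0.126, adjusted p = 9.9e-07 by limma) and −1.59 with the term (adjusted p = 0.0051). Tle3, a co-repressor that the study named, differed by −1.0, −0.36 and 0.02 at its 3 probesets, of which the first passed.

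Of the 156 probesets of named genes, 141 passed in the 6 arrays. Of the 141, 22 passed with the same sign when the array set was a term. Among them were those of Hspb1, Hsph1, Cryab, Klf10, Skil, Sox4, Fos, Nr4a1 and Cxcl1. Another 4 passed with the opposite sign, both of Nupr1 and those of Trib3 and Gabarapl1. Outside the 156, probesets of Ddit3, Gadd45a, Cebpb (its brightest), Cxcl10 and Dnajb2 also passed in both fits with opposite signs. Among all probesets called in the 6 arrays, 21 did so.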

How the data were processed

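RNA of 14 samples was hybridised to Affymetrix mouse expression arrays. The authors deposited log2 RMA signals, and the submitters' processing notes name GCOS 1.2 and RMA. The RMA version and which arrays were normalized together are not given in the sources used here. After 64 AFFX control probesets were left out, 22626 were tested. Of these 20380 have 1 gene symbol, 691 several and 1555 none. In the gene lists and the counts over all genes, a gene was read at its brightest probeset. Some named genes were read at another probeset, such as the one of largest difference.

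The 3 benzyl alcohol and 3 Lipofectamine arrays were compared with limma 3.58.1 in R 4.3.3 (lmFit and eBayes, tested on simulated data), with Benjamini-Hochberg adjustment over all 22626 probesets and a threshold of 0.05. The unadjusted threshold of 0.001 that the methods use was counted too. The text names the 12 largest differences in each direction, up to 4 called members of each of 35 gene lists by smallest p, genes the study named, and other list members with their values. Alternatives changed the arrays, filters, scaling, variance model and replicate block.

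The comparison and lists were chosen with earlier results of these data known. The genes of wide spread, the array sets, the promoter stretches and the genes named for their value with the set as a term were chosen after their values were seen. Arrays give no read depth, and their number limits the precision.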

Additional observations from a re-analysis of the deposited data

Results flagged for a closer look

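Among the 156 probesets of named genes, 2 had a control array that stood apart from the other 4. Chance alone flags about 1 group in 20, so 2 are not more than chance would give. Hspa1b, an inducible HSP70, read 4.30 in control array 3 and 5.13 to 5.44 in the other control arrays at its dimmest probeset. Egr2, an early growth response factor, read 5.00 in control array 2 and 4.75 to 4.81 in the others. Neither array enters the direct comparison, but both enter the fit with the array set as a term.

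The probesets for 18S ribosomal RNA, which were left out of the tests, were higher in heat shock array 1 than in any control array. They read 10.3 at the 3′ end against 7.48 to 8.10 in the controls, 7.47 at the 5′ end against 4.61 to 5.67, and 8.60 in the middle against 5.44 to 6.33. In the arrays compared here the 3′ probeset read 7.47 to 7.83 after Lipofectamine and 7.81 to 8.43 after benzyl alcohol.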

How the results depend on the processing

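The 2883 probesets became 163 without moderation of the variances, 1861 with a fold of at least 1.5, 1466 genes with a gene's probesets averaged, 334 with the array set as a term, and 1425 (without Lipofectamine replicate 1) to 2683 with 1 array left out. The 1606 at the unadjusted threshold became 409, 837 and 387 without moderation, with averaging and with the set as a term, and 923 to 1498 with 1 array left out. The share of calls that were higher, 51.0%, was 40.5% without moderation and 41.8% to 59.2% with 1 array left out. Fits on all 14 arrays gave 2699 and on the 9 treated arrays 3992. With a replicate block 2300 passed, and same-numbered arrays deviated together at r = 0.07, −0.56 and 0.05, so the numbers were not taken to pair them. Of the 141 called named probesets 109 passed with each array left out, and 29 of the 32 others were lost without Lipofectamine replicate 1. With the array set as a term 39 of the 141 changed sign: Nupr1 (1.46 and 1.01), Slc7a11 (0.088), Trib3 (1.66), Cebpb (0.49), Ier3 (0.16), Hmox1 (1.24), Srxn1 (0.066), Atf5 (0.16), Junb (0.040), Psph (0.33), Pdia4 (0.25), Sdf2l1 (0.083), Blvrb (0.090), Sqstm1 (0.19), Mitf (−0.064), Gabarapl1 (0.79), Neu1 (0.11), Bbc3 (0.34), Sesn2 (0.99), Ccna2 (−0.13), Cdk2 (−0.16), Bhlhe40 (−0.11), Egln1 (−0.071), Vegfa (0.32), Relb (0.40), Tnfaip2 (0.58), H2-D1 (0.42), Vcl (−0.41), Cnn2 (−0.21), Zyx (0.024), Ccn2 (−0.54), Ccn1 (0.44), Id2 (−0.15), Tgif1 (1.19), Mapk8ip1 (−0.25), Psmb3 (0.031), Sdhd (−0.30) and Aldh2 (0.13, and 0.047 with averaging). The cause was not tested. Probesets that did not pass in the direct comparison also changed sign. With the set as a term these were Tle3 (−0.012), Dnajb4 (0.17 and 0.30) and Gadd45g (0.045). With averaging Tle3 differed by −0.45 and passed (adjusted p = 0.0489 by limma). With equal medians they were Dusp6 (0.00081) and Hspa8 (0.0044), and with array weights Tle3 (−0.045), Gadd45g (0.032) and Hspa8 (0.025, 0.0034 and 0.18). With 1 array left out the values ran from −0.19 to 0.098 for Dusp6, −0.085 to 0.12 for Tle3, −0.16 to 0.062 for Egr2, −1.10 to 0.016 for Dnajb4 and −0.70 to 0.16 for Gadd45g, and for Hspa8 from −0.074 to 0.11, −0.11 to 0.031, −0.70 to 0.18 and −0.14 to 0.10 at its probesets.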
